A study of Mus musculus with 69 samples.

Results

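Genes that set renal phosphate reabsorption and the activation of vitamin D were followed in the kidneys of lupus-prone mice: the sodium phosphate carriers Slc34a1, Slc34a3, Slc20a1 and Slc20a2, the co-receptor gene Kl, the hormone receptor gene Pth1r, the vitamin D enzymes Cyp27b1 and Cyp24a1, and the receptor gene Vdr. They were taken by symbol from the gene counts of whole perfused kidneys, 9 of the 24523 symbols used (24538 listed, 15 with an empty cell). All mice were NZB/W F1, a cross that develops lupus nephritis without any induced lesion, and each library came from 1 mouse. Young mice were 12 weeks old (n = 30). Nephritic mice were 30 to 45 weeks old with proteinuria of 300 mg/dl (n = 27), and both groups were harvested every 4 h at ZT0, ZT4, ZT8, ZT12, ZT16 and ZT20, where Zeitgeber time (ZT) 0 is lights on. Remission mice were nephritic mice, 36 to 50 weeks old, that had received cyclophosphamide at 50 mg/kg, with 6 doses each of CTLA4Ig (200 µg) and anti-CD40L (250 µg) over 2 weeks. They were harvested 8 weeks later at proteinuria of 30 mg/dl or less, 4 at ZT0 and 4 at ZT12. Age and nephritis cannot be told apart between young and nephritic mice, and no untreated mouse without nephritis of the older ages was analysed here.

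Phosphate filtered at the glomerulus is recovered by carriers in the proximal tubule, chiefly NaPi-IIa (Slc34a1) and NaPi-IIc (Slc34a3). The bone hormone FGF23, which signals through klotho (Kl), and parathyroid hormone, which signals through its receptor (Pth1r), both take these carriers off the brush border. The 1α-hydroxylase (Cyp27b1) makes active vitamin D, the 24-hydroxylase (Cyp24a1) breaks it down, and the receptor (Vdr) reads the active form. Parathyroid hormone favours Cyp27b1, while FGF23 and active vitamin D itself favour Cyp24a1.

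Total counts ran from 25257530 to 35744843 in young libraries, from 26596500 to 48075977 in nephritic libraries and from 13311278 to 21849912 in remission libraries. Of the mice, 6 young and 5 nephritic ones, all at ZT0 or ZT12, belonged to RNASeq Set 1 of the study, and set was a term in each fit that held both sets. The remission libraries and 4 repeat libraries of young and nephritic mice carry an s-number in place of a set; only original libraries entered the groups. In the 3 repeats that lay closest to their own original, the members differed from it by −0.23 to 0.23 log2. The repeat of nephritic ZT12 replicate 6 lay nearer another mouse. A pair of libraries stood apart from their time label: the clock gene Arntl was at 27.01 CPM (the gene's count relative to the TMM-scaled library total) in remission ZT12 replicate 4, against 3.19 to 4.89 in the other ZT12 remission mice, and at 17.97 CPM in nephritic ZT8 replicate 3, against 2.10 to 3.70 in the other nephritic ZT8 mice. The listed markers of tubule segments and podocytes were detected in every library. Adrenal cortex markers summed to at most 1759.9 CPM in young, 1158.1 in nephritic and 9.29 in remission libraries, and their part in the results was not tested. In the annotation, exons of Slc34a1, Slc20a1, Slc20a2 and Cyp24a1 share between 83 and 545 bases with a gene on the other strand, and since strand use in counting is not given in the sources used here, reads of such stretches cannot be told apart.

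Per kilobase of exon, the order in young mice was Slc34a1 at 1284 ± 192 CPM per kb (SD, n = 30), Pth1r at 222 ± 37.3, Kl at 139 ± 31.4, Vdr at 62.5 ± 9.93, Slc34a3 at 37.2 ± 9.27, Cyp24a1 at 18.6 ± 15.5, Slc20a2 at 16.9 ± 2.33, Slc20a1 at 15.1 ± 2.69 and Cyp27b1 at 2.30 ± 0.781. The NaPi-IIa gene was thus the highest of the 9 on this scale and the 1α-hydroxylase gene the lowest. Cyp24a1, Slc20a2 and Slc20a1 lay within 1 SD of each other, and Cyp24a1 had by far the widest spread for its level. In nephritic mice the 1α-hydroxylase gene remained the lowest at 6.04 ± 4.91 CPM per kb (n = 27), and Slc34a1 the highest at 780 ± 340.

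In the build of the files (mm10, GRCm38), the annotation places Slc34a1 at chr13:55398187-55415592, Slc34a3 at chr2:25228898-25234364, Slc20a1 at chr2:129198764-129211616, Slc20a2 at chr8:22476788-22569612, Kl at chr5:150952607-150993817, Pth1r at chr9:110722085-110747145, Cyp27b1 at chr10:127048250-127053006, Cyp24a1 at chr2:170482708-170497145 and Vdr at chr15:97854425-97910630. Of the 9, 7 had at least 1 RefSeq promoter window (GRCm38.p6), 10 windows in all. The bases before a RefSeq start site are shown for the 2 members that rose with both group and injury (Slc20a1, Cyp27b1) and for 2 that fell (Slc34a1, Kl), on the gene strand, with motif matches in capitals and any base of an annotated exon of the gene left out. They lie at chr2:129198523-129198763 (Slc20a1), chr10:127047996-127048245 (Cyp27b1), chr13:55399398-55399647 (Slc34a1) and chr5:150952357-150952606 (Kl), all on the plus strand. The RefSeq start used for Slc34a1 lies inside the gene as placed above, past its first annotated base.
Slc20a1: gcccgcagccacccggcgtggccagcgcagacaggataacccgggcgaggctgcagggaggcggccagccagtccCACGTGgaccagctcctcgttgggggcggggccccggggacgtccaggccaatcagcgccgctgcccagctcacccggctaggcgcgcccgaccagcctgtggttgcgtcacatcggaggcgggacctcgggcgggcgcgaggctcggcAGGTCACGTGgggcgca
Cyp27b1: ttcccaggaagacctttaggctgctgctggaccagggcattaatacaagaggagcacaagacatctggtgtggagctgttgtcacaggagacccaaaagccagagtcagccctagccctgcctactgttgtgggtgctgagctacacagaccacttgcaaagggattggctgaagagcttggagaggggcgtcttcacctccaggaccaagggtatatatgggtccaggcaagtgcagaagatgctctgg
Slc34a1: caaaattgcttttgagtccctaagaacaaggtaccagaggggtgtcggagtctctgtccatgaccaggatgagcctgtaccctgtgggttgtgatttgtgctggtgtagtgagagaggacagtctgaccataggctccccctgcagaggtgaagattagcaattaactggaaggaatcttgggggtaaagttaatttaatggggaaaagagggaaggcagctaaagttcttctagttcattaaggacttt
Kl: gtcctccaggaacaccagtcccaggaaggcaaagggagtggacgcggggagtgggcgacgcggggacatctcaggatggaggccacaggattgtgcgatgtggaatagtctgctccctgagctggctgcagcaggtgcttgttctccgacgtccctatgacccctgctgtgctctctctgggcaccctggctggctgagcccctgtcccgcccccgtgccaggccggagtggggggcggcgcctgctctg
The motifs searched on both strands of the 250 bases were the clock E-box CACGTG, the D-box TTANGTAA, the nuclear receptor half-site AGGTCA and the vitamin D response element of the DR3 kind. The first Slc20a1 window held 2 E-boxes, one of which overlaps its half-site, whereas the other 9 windows held none; 6.02% of all 32851 promoter windows hold an E-box. Half-sites were found 2 times in the Slc34a3 window and once in each of the 2 Slc20a1 windows, against 14.02% of all windows. No window of a member held a D-box or a DR3 element, which 2.06% and 0.0396% of all windows hold.

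To learn how the genes differed with nephritis, nephritic and young mice were compared over all 6 time points with time and set as covariates. All 9 members passed the threshold, an adjusted p of 0.05 or less in edgeR's quasi-likelihood test: 3 were higher and 6 lower in nephritic mice. Of all 17521 genes tested, 28.1% were higher and 33.9% lower, so a call alone sets no member apart. The median log2 difference was −0.32 over the members and −0.03 over all genes tested.

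Both type II carriers, which recover most filtered phosphate, were lower in nephritic kidneys. Slc34a1 ranged from 4070 to 7138 CPM in young mice (median 5071) and from 604 to 5292 CPM in nephritic mice (median 3195). Of the 27 nephritic mice, 20 lay under the lowest young mouse and 2 lay above the young median, and the fitted level was 1.74-fold lower (log2 difference −0.80, SE 0.14, adjusted p = 2.05e-06). Slc34a3 ranged from 55.7 to 126 CPM in young mice (median 78.5) and from 6.62 to 89.0 CPM in nephritic mice (median 43.6). The groups overlapped, with 19 nephritic mice under the young range and 3 above its median, and the fitted level was 1.90-fold lower (log2 difference −0.92, SE 0.17, adjusted p = 3.75e-06). The log2 ratio of Slc34a3 to Slc34a1 was −6.02 ± 0.25 (SD, n = 30) in young and −6.19 ± 0.34 (n = 27) in nephritic mice, a difference of −0.17. With any 1 mouse left out the difference ran from −0.19 to −0.14. The SD is the spread between mice, and no test of this ratio is given here.

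The type III carriers, found in most tissues, differed in opposite directions. Slc20a1 (PiT-1) ranged from 38.8 to 76.6 CPM in young mice (median 50.9) and from 41.0 to 118 CPM in nephritic mice (median 68.3). Above the young range lay 8 nephritic mice, and above its median 24, and the fitted level was 1.39-fold higher (log2 difference 0.48, SE 0.08, adjusted p = 5.20e-07). Slc20a2 (PiT-2) ranged from 41.7 to 77.7 CPM in young mice (median 60.9) and from 27.7 to 73.7 CPM in nephritic mice (median 54.3). It had the smallest difference of the 9, 1.15-fold lower (log2 difference −0.20, SE 0.05, adjusted p = 0.00111), and only 2 nephritic mice lay outside the young range. In Set 2 alone that difference was −0.04 (SE 0.04, adjusted p = 0.308), and in Set 1 alone, a fit added after the data were seen, it was −0.74 (SE 0.14, adjusted p = 0.000977). Set 1 held ZT0 and ZT12 only, so these fits also averaged over different hours.

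The receptors for the phosphate-wasting hormones were lower. Kl ranged from 326 to 1126 CPM in young mice (median 712) and from 147 to 753 CPM in nephritic mice (median 379). Under the young range lay 10 nephritic mice, and under its median 25, and the fitted level was 1.83-fold lower (log2 difference −0.87, SE 0.12, adjusted p = 1.16e-08). Pth1r, the parathyroid hormone receptor gene, ranged from 435 to 978 CPM in young mice (median 615) and from 306 to 775 CPM in nephritic mice (median 499). The groups overlapped widely, with 9 nephritic mice under the young range, and the fitted level was 1.25-fold lower (log2 difference −0.32, SE 0.06, adjusted p = 7.50e-06).

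Both vitamin D hydroxylase genes were higher in nephritic kidneys. Cyp27b1 ranged from 2.27 to 9.93 CPM in young mice (median 5.33) and from 1.91 to 47.8 CPM in nephritic mice (median 11.3). Above the young range lay 17 nephritic mice, and below it 1, and the fitted level was 2.43-fold higher (log2 difference 1.28, SE 0.21, adjusted p = 6.87e-07). Cyp24a1 varied widely within each group, from 9.15 to 209 CPM in young mice (median 56.0) and from 21.9 to 474 CPM in nephritic mice (median 103). Only 3 nephritic mice exceeded the young range, and 17 its median, and the fitted level was 1.81-fold higher (log2 difference 0.85, SE 0.25, adjusted p = 0.00294). The sets disagreed on Cyp24a1: the log2 difference was 1.22 (SE 0.25, adjusted p = 8.14e-05) in Set 2 alone and −0.68 (SE 0.46, adjusted p = 0.221) in Set 1 alone. Set 1 held mice of ZT0 and ZT12 only, so set and hours cannot be told apart in this disagreement. The log2 ratio of Cyp27b1 to Cyp24a1 was −3.22 ± 1.40 (SD, n = 30) in young and −2.95 ± 1.98 (n = 27) in nephritic mice, and no test of this ratio is given here. The difference, nephritic minus young, ran from 0.15 to 0.46 with any 1 mouse left out, and was −0.080 in Set 2 alone. In that set the fitted difference of Cyp27b1 was 1.21 (SE 0.21, adjusted p = 5.65e-06), so which of the hydroxylase genes differed more was not the same in all fits.

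Vdr, the receptor gene, ranged from 189 to 376 CPM in young mice (median 276) and from 95.2 to 351 CPM in nephritic mice (median 195). Under the young range lay 9 nephritic mice, and under its median 24, and the fitted level was 1.37-fold lower (log2 difference −0.45, SE 0.08, adjusted p = 1.79e-06). In Set 1 alone 6 of the 9 members passed, where 59.1% of 15654 genes did, and Slc20a1 (adjusted p = 0.0541), Pth1r (adjusted p = 0.0910) and Cyp24a1 did not. In Set 2 alone 8 of 9 passed, all but Slc20a2, where 55.9% of 17339 genes did.

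The proximal tubule, the site of the type II carriers, also had lower markers in nephritic mice. All 12 listed proximal tubule markers were lower, with a median log2 difference of −0.73, and their summed level ran from 12235 to 20013 CPM in young mice and from 2733 to 14937 CPM in nephritic mice. In bulk kidney, fewer cells of a type and less RNA per cell cannot be told apart. When the mean log2 level of these markers was added as a covariate, the difference was 0.023 (SE 0.06, adjusted p = 0.821) for Slc34a1 and 0.019 (SE 0.10, adjusted p = 0.916) for Slc34a3. In that fit 3 of the 9 members still passed, where 20.8% of all genes did: Kl at −0.24 (SE 0.09, adjusted p = 0.0430), Cyp27b1 at 0.78 (SE 0.28, adjusted p = 0.0376) and Cyp24a1 at 1.17 (SE 0.34, adjusted p = 0.00853). Slc20a1 was at 0.26 (SE 0.10, adjusted p = 0.0563), while Vdr, Pth1r and Slc20a2 were at −0.17, −0.10 and −0.03. In that fit the differences of the brush border carriers were near 0, while those of the hydroxylases were not. The markers in the covariate themselves differed between the groups by −0.97 to −0.62 log2, so genes that follow them are drawn towards 0. What lies behind the differences was not tested. All 4 distal convoluted tubule markers were lower too, with a median of −0.61. All 8 lymphocyte markers and all 7 macrophage and myeloid markers were higher in nephritic mice, the summed myeloid markers from 107 to 236 CPM in young and from 269 to 1721 CPM in nephritic mice, and their part in the Cyp27b1 level was not tested.

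**Figure D1:**
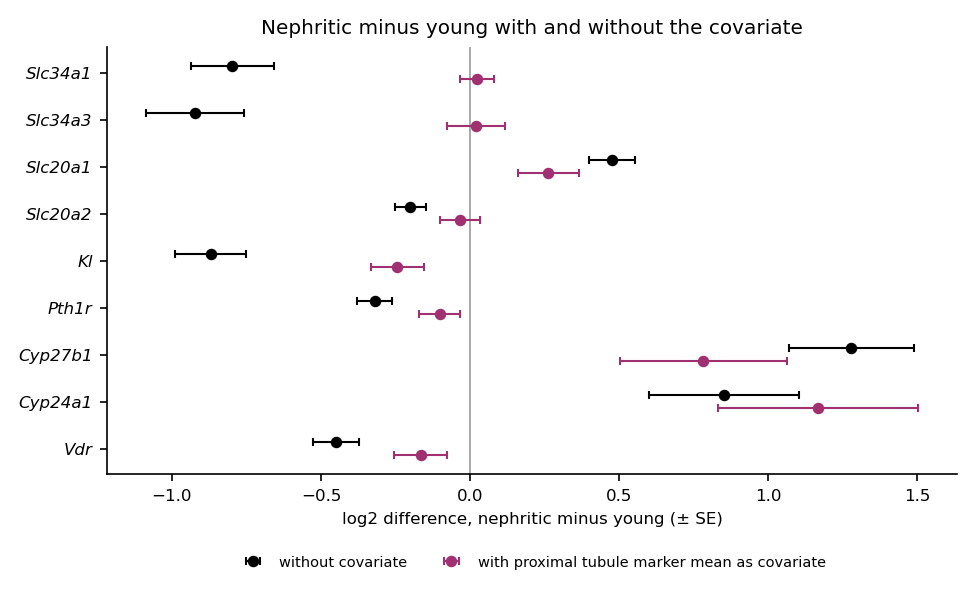
Fitted log2 difference, nephritic minus young (horizontal axis, ± SE), of each of the 9 genes without (black) and with (purple) the mean of 12 proximal tubule markers as a covariate. Slc34a1 and Slc34a3 move from −0.80 and −0.92 to 0.023 and 0.019, while Cyp27b1 and Cyp24a1 stay above 0.

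The genes around the members were read from 4 lists. Of 10 other phosphate transport and scaffold genes, 1 was higher and 6 lower in nephritic mice (median log2 difference −0.32, −0.03 over all genes). The intestinal-type carrier gene Slc34a2 was the one that rose, at 1.501 (SE 0.22, adjusted p = 5.93e-08), and Pdzk1, a scaffold protein of the brush border, was at −0.75 (SE 0.11, adjusted p = 3.44e-08). Slc17a3 and the phosphate exporter gene Xpr1 were at −0.60 and −0.41. Of 13 tested genes of FGF23 and parathyroid hormone signalling, 2 were higher and 6 lower (median −0.14). Stc2, a stanniocalcin gene, was at 1.19 (SE 0.11, adjusted p = 5.88e-14) and Phex at 0.91 (SE 0.31, adjusted p = 0.00996). The FGF receptor genes Fgfr3 and Fgfr4 were at −0.47 and −0.45. The genes of the hormones themselves, Fgf23 and Pth, had too few counts to test.

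Of 9 genes for vitamin D supply and receptor partners, none was higher and 6 were lower (median −0.34). Lrp2 and Cubn, the endocytic receptor genes megalin and cubilin through which the tubule takes up vitamin D bound to its carrier protein, were at −0.94 (SE 0.15, adjusted p = 6.49e-07) and −0.86 (SE 0.12, adjusted p = 2.34e-08). Rxrg and Dab2 were at −0.37 and −0.34. Of 6 calcium transport genes under vitamin D control, 2 were higher and 3 lower (median −0.31). The apical calcium channel genes Trpv6 and Trpv5 were at 1.15 (SE 0.17, adjusted p = 1.51e-07) and 0.76 (SE 0.16, adjusted p = 7.31e-05), while the calcium binding protein gene Calb1 was at −1.06 (SE 0.16, adjusted p = 1.65e-07) and the exchanger gene Slc8a1 at −0.68. Channels and binding proteins of the same transport route thus differed in opposite directions.

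Havcr1 (KIM-1), a marker of injured proximal tubule, ran from 21.3 to 1122 CPM in nephritic mice against 23.2 to 124 CPM in young mice. Above 400 CPM stood 5 nephritic mice, 3 of Set 1 and 2 of Set 2, all at ZT0 or ZT12. Slc34a1 in these was at 604, 874, 877, 886 and 1371 CPM, the 5 lowest values of all mice. To ask whether the members followed injury from mouse to mouse, each gene was correlated with Havcr1 over the 27 nephritic mice on the log2 CPM scale, with a permutation test adjusted over 16871 genes. Of the 9 members 7 passed, 5 negatively and 2 positively, where 22.3% of all genes were negatively and 23.5% positively related. Slc34a1 had the closest relation (Pearson r = −0.82, adjusted p = 7.79e-05 and Spearman rho = −0.87, adjusted p = 0.000108, permutation test). Slc34a3 followed with r = −0.76 and rho = −0.71, and Kl with r = −0.74 and rho = −0.70 (adjusted p = 7.79e-05 for both r by permutation). The hormone receptor genes were less closely related, Vdr at r = −0.59 and rho = −0.55 and Pth1r at r = −0.54 and rho = −0.55.

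The members that rose in nephritic mice did not all follow Havcr1. Slc20a1 did, with r = 0.67 and rho = 0.69 (adjusted p = 0.000878 and 0.000533, permutation test). Cyp27b1 was related more weakly, with r = 0.48 and rho = 0.45 (adjusted p = 0.0276 and 0.0491, permutation test), and without the 2 mice farthest from the Havcr1 median it was r = 0.42 (adjusted p = 0.0756). Cyp24a1 (r = −0.21, adjusted p = 0.389) and Slc20a2 (r = −0.15, adjusted p = 0.579) did not pass. Leaving out those 2 mice gave r between −0.84 and −0.78 for Slc34a1, Slc34a3 and Kl, and r of 0.68, −0.61 and −0.47 for Slc20a1, Pth1r and Vdr, which all still passed. Among the 22 nephritic mice with Havcr1 under 400 CPM, a subset chosen after the data were seen, Slc34a1 (r = −0.73, rho = −0.77) and Slc20a1 (r = 0.58, rho = 0.59) passed by both measures. Kl (r = −0.56) and Vdr (r = −0.55) passed by Pearson only, with rho = −0.51 and −0.52 (adjusted p = 0.0728 and 0.0714, permutation test). Slc34a3 (r = −0.47, adjusted p = 0.104), Pth1r (r = −0.24, adjusted p = 0.461) and Cyp27b1 (r = 0.28, adjusted p = 0.398) did not pass there by permutation, so their calls were lost without the 5 mice with the highest Havcr1. Leaving out any of 4 single mice (ZT0 replicates 2, 3 and 6 and ZT16 replicate 1) also lost the call of Cyp27b1, with r from 0.40 to 0.43. In Set 2 alone (22 mice) Slc34a1 was at r = −0.85, Slc34a3 at −0.74, Kl at −0.70, Slc20a1 at 0.62 and Vdr at −0.54, all past the threshold, though Vdr was not by Spearman (rho = −0.50, adjusted p = 0.0641, permutation test), while Pth1r at −0.48 (adjusted p = 0.0610, permutation test) and Cyp27b1 at 0.36 (adjusted p = 0.193) were not. No correlation was computed over the 5 nephritic mice of Set 1. With time point and set first taken out of each gene, Cyp27b1 was at r = 0.60 (adjusted p = 0.00287, permutation test). In that setting 4841 of 16871 genes were positively related, against 3958 in the main one. Cyp24a1 (r = −0.083, adjusted p = 0.749) and Slc20a2 (r = −0.15, adjusted p = 0.551) still did not pass. Against Lcn2 in place of Havcr1, Cyp27b1 was at r = 0.46 (adjusted p = 0.0348, permutation test).

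**Figure D2:**
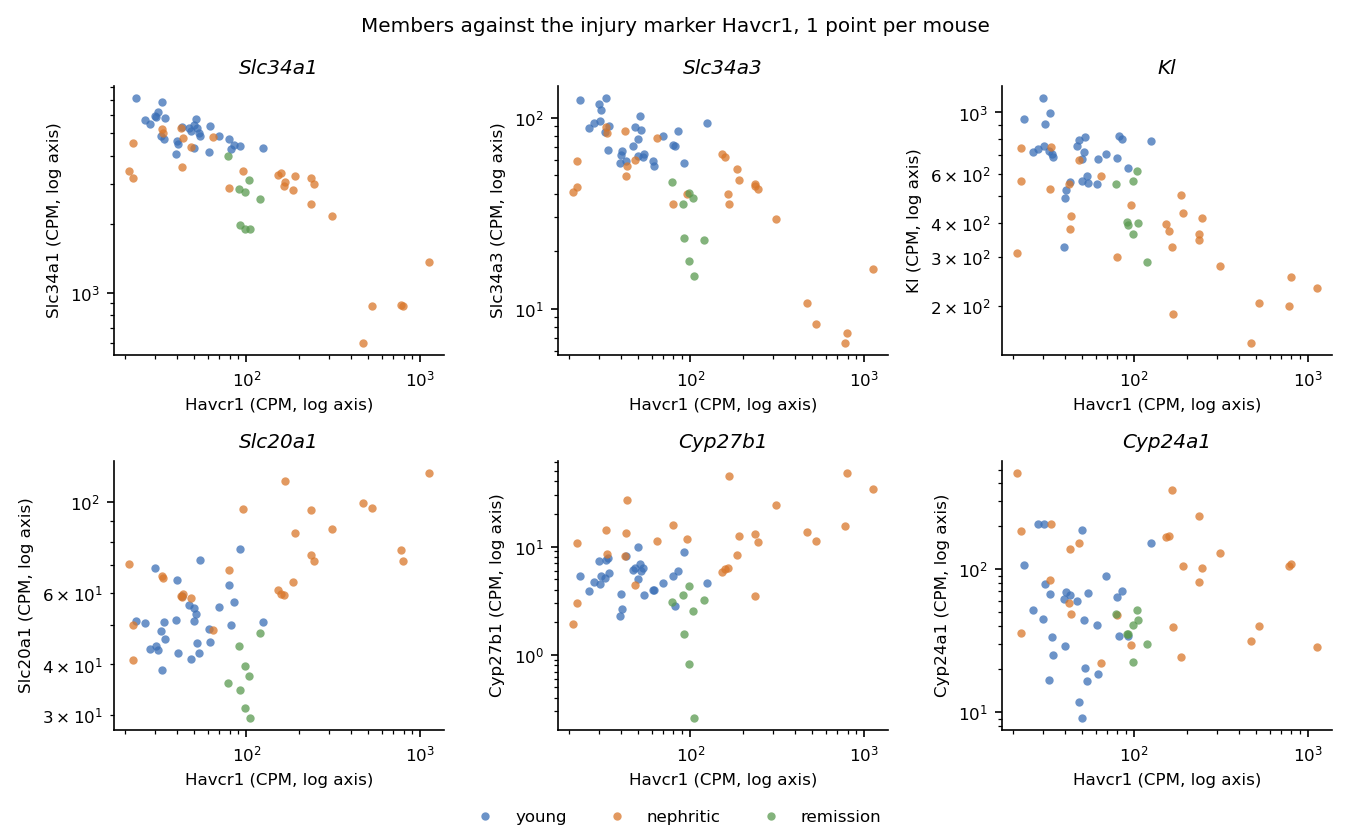
CPM of 6 members (vertical, log axis) against CPM of Havcr1 (horizontal, log axis), 1 point per mouse, coloured by group. The 5 nephritic mice with Havcr1 above 400 CPM have the lowest Slc34a1 of all mice, from 604 to 1371 CPM, whereas Cyp24a1 shows no clear trend.

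The study asked whether renal genes keep their daily course, so the 6 time points were compared within each group. In young mice 7 of the 9 members passed, where 39.8% of 16521 genes tested did. Slc34a3 had the smallest adjusted p, 2.06e-05, with means of 106 ± 15.1 CPM (SD, n = 4) at ZT4 and 63.2 ± 6.14 CPM (n = 4) at ZT16. The 4 mice at ZT4 all lay above the 4 at ZT16. Kl (adjusted p = 0.00455) went from 850 ± 123 CPM at ZT4 to 550 ± 175 at ZT16, and Vdr (adjusted p = 0.0197) from 315 ± 17.7 to 228 ± 37.5. Slc34a1 (adjusted p = 0.00197) was at 6110 ± 573 CPM at ZT4 and 4408 ± 215 at ZT20, with no overlap between those time points.

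Slc20a2 (adjusted p = 0.000919) and Pth1r (adjusted p = 0.0275) also had their highest mean at ZT4. Cyp24a1 (adjusted p = 0.00171) was at 141 ± 78.3 CPM at ZT4 and 37.9 ± 28.96 CPM (n = 7) at ZT12, with values at ZT4 from 67.1 to 209. Slc20a1 (adjusted p = 0.0847) and Cyp27b1 (adjusted p = 0.172) did not pass. In a separate linear fit of log2 CPM to time point and set, ZT4 was the highest time point of all 7 members that passed. For Slc34a1 the means at ZT4 and ZT8 were nearly equal, 6110 and 6123 CPM. Without set as a covariate Cyp24a1 did not pass (adjusted p = 0.117), and in a cosine fit of 24 h period it did not either (adjusted p = 0.331), while Slc20a1 did (adjusted p = 0.0282). Without young ZT0 replicate 4 Slc20a1 passed as well (adjusted p = 0.00635), and without ZT20 replicate 3 or 4 Pth1r did not (adjusted p = 0.0689 and 0.0629).

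In nephritic mice 3 of the 9 members passed, where 21.6% of 16872 genes tested did. Slc20a2 (adjusted p = 0.00534) was at 68.2 ± 4.13 CPM at ZT4 (n = 4) and 43.0 ± 10.03 CPM at ZT12 (n = 6), with no overlap. Pth1r (adjusted p = 0.0355) was at 696 ± 55.8 CPM at ZT8 (n = 4) and 433 ± 91.1 at ZT12, also with no overlap. Cyp24a1 (adjusted p = 0.0254) was at 247 ± 196 CPM at ZT16 (n = 3) and 39.6 ± 8.10 at ZT12. In that low ZT12 group the 6 values ran from 29.4 to 48.9 CPM, and the 3 at ZT16 were 131, 138 and 474 CPM. The carriers Slc34a1 (adjusted p = 0.771) and Slc34a3 (adjusted p = 0.604) did not pass, and their spread within ZT0, 1904 and 34.9 CPM (SD, n = 7), was far above the 607 and 14.2 CPM of young mice. Kl (adjusted p = 0.176), Slc20a1 (0.255), Cyp27b1 (0.198) and Vdr (0.0633) did not pass either. The nephritic time points also differed in injury. Havcr1 ran from 33.2 to 166 CPM at ZT8, from 43.1 to 524 CPM at ZT12 and from 22.4 to 1122 CPM at ZT0. No time course fit held Havcr1 as a term, so the part of injury in these differences was not tested. Leaving out 1 mouse in turn left between 1 and 4 members past the threshold. The 1 was Slc20a2, without ZT12 replicate 6, when Pth1r and Cyp24a1 were at adjusted p = 0.0581 and 0.0578. Pth1r was also lost without ZT12 replicate 3 or 4 or any of the 4 mice at ZT8 (adjusted p from 0.0548 to 0.112), and Vdr passed without ZT0 replicate 6 or ZT16 replicate 1 or 2. With the cosine fit 1 member, Slc20a2, passed.

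**Figure D3:**
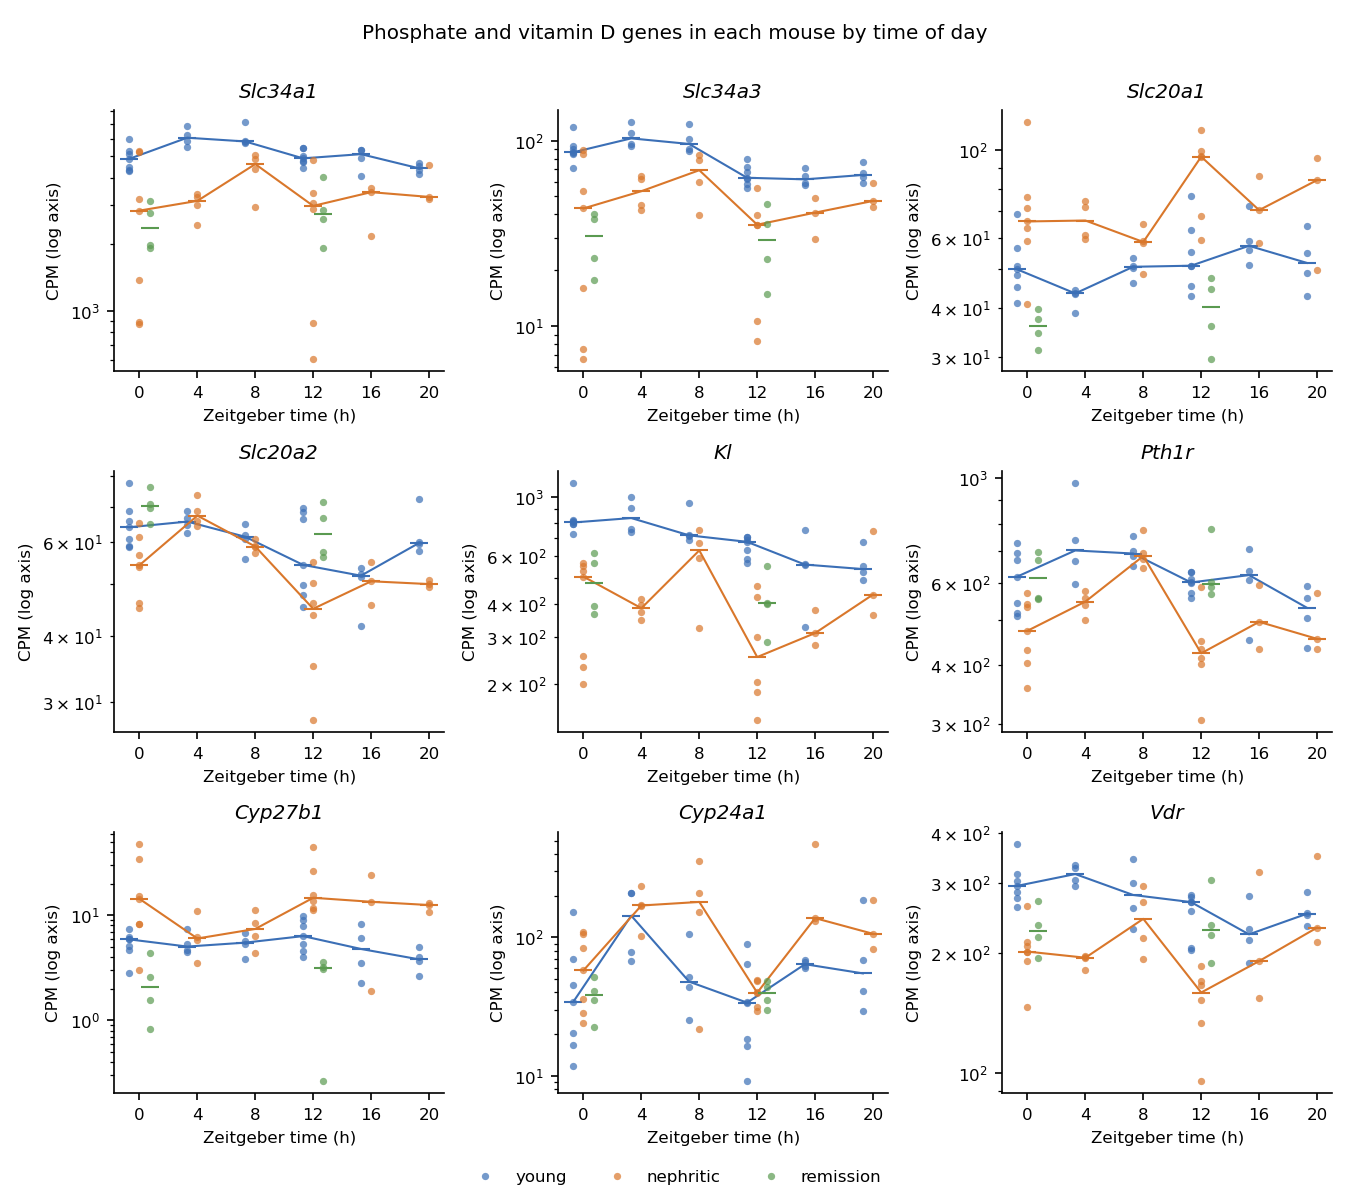
CPM of each of the 9 genes (vertical, log axis) by Zeitgeber time in hours (horizontal), 1 point per mouse, with bars at the median of each time point, joined by lines for young and nephritic mice. Young Slc34a3 is highest at ZT4 and low from ZT12 on, while nephritic values at ZT0 and ZT12 spread widely.

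A member that passed in one group and not in the other was not thereby shown to differ between them, and the difference in time course was tested directly. None of the 9 passed that test in edgeR, where 6.27% of 17521 genes did, and 2 of the 9 had an unadjusted p under 0.05. These were Vdr (adjusted p = 0.0517) and Kl (adjusted p = 0.173). DESeq2 called 1 of the 9, Vdr (adjusted p = 0.0143), and RLE scaling in edgeR also called Vdr (adjusted p = 0.0477). The adjusted p of Slc34a1 and Slc34a3 was 0.638 and 0.769, so a difference in the course of the carriers was not detectable with these mice.

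Remission mice were then compared with nephritic and with young mice at ZT0 and ZT12. The 13 nephritic mice of these time points held all 5 with Havcr1 above 400 CPM, and no fit left these 5 out together. Against nephritic mice 5 of the 9 members passed, 3 higher and 2 lower in remission, where 37.5% of 16841 genes passed, 2868 of them higher and 3451 (20.5% of those tested) lower (median log2 difference −0.12 over the members, −0.02 over all genes). The comparisons with nephritic and with young mice share the remission libraries, and those libraries carry s-numbers that no original young or nephritic library has. The s-number was therefore also fitted as a term, with the repeat libraries of 4 mice added. It was fitted again with those of 3 mice, without both libraries of the mouse whose repeat lay nearer another mouse. These fits held no term for mouse, so repeats were not paired with their originals and counted as separate mice. Differences between mice therefore also enter the s-number term. With that term 3 of the 9 members passed against nephritic mice in either fit, where 23.6% of 16941 genes (4 mice) and 22.7% of 16885 genes (3 mice) did. Against young mice no member passed in edgeR in either fit, where 13.8% and 10.1% of genes did, and 6 (4 mice) and 3 (3 mice) of the 9 had an unadjusted p under 0.05.

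Cyp27b1 had the largest difference. Its 8 remission values ran from 0.264 to 4.36 CPM (median 2.81), against 2.99 to 47.8 CPM (median 14.3) in the 13 nephritic mice of the same time points. The 4 at ZT0 were 0.819, 1.56, 2.56 and 4.36 CPM and the 4 at ZT12 were 0.264, 3.07, 3.19 and 3.57 CPM. Under all 27 nephritic mice lay 3 of the 8, and all 8 lay under the median of those 27. The fitted level was 8.64-fold lower than in nephritic mice (log2 difference −3.11, SE 0.44, adjusted p = 1.60e-06). It was also 2.68-fold lower than in young mice (log2 difference −1.42, SE 0.42, adjusted p = 0.00705), with 3 of the 8 mice under every young mouse and all 8 under the young median. With the s-number term from 4 mice the difference from nephritic mice was −2.91 (SE 0.51, adjusted p = 0.000131), but that from young mice did not pass (−1.15, SE 0.53, adjusted p = 0.153). From 3 mice these were −3.16 (SE 0.55, adjusted p = 0.000157) and −1.30 (SE 0.56, adjusted p = 0.144). The lowest value, in the ZT12 mouse whose Arntl stood apart, rested on a count of 4. Without that mouse the difference from nephritic mice was −2.94 (SE 0.43, adjusted p = 3.58e-06) and from young mice −1.25 (SE 0.41, adjusted p = 0.0153).

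Slc20a1 was likewise below both groups in remission. It ran from 29.6 to 47.7 CPM in remission (median 36.7), and 6 of the 8 mice lay under all 27 nephritic mice and 5 under all young mice. The fitted level was 2.05-fold lower than in nephritic mice (log2 difference −1.03, SE 0.15, adjusted p = 2.31e-06) and 1.38-fold lower than in young mice (log2 difference −0.46, SE 0.15, adjusted p = 0.0135). With the s-number term from 4 mice it was at −1.04 (SE 0.20, adjusted p = 0.000347) from nephritic mice, and the call against young mice was lost (−0.42, SE 0.20, adjusted p = 0.179). From 3 mice it was at −1.11 (SE 0.22, adjusted p = 0.000680) and −0.48 (SE 0.22, adjusted p = 0.168).

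A further 3 members were higher in remission than in nephritic mice and did not pass against young mice. Slc20a2 ran from 56.3 to 76.2 CPM (median 68.2), with all 8 mice above the median of the 27 nephritic mice (log2 difference 0.48, SE 0.10, adjusted p = 0.000552). Pth1r ran from 555 to 780 CPM (median 594), also with all 8 above that median (0.44, SE 0.10, adjusted p = 0.00115). Vdr ran from 189 to 304 CPM (median 229), with 6 of 8 above it (0.44, SE 0.12, adjusted p = 0.00481). Against young mice these were at 0.15 (SE 0.11), 0.02 (SE 0.10) and −0.20 (SE 0.12). Slc20a2 passed against young mice in Set 2 alone (0.29, SE 0.06, adjusted p = 0.000506), and Vdr passed without remission ZT12 replicate 1 (−0.30, SE 0.12, adjusted p = 0.0359). With the s-number term from 4 mice, Pth1r still passed against nephritic mice (0.38, SE 0.13, adjusted p = 0.0336), and Slc20a2 (0.22, adjusted p = 0.269) and Vdr (0.30, adjusted p = 0.173) did not. From 3 mice they were at 0.42 (adjusted p = 0.0486), 0.39 (adjusted p = 0.0786) and 0.40 (adjusted p = 0.118).

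Both brush border carriers and klotho were below young mice in remission, calls that did not hold with the s-number term. Slc34a1 ran from 1911 to 4001 CPM (median 2684), and all 8 mice lay under every young mouse. Its fitted level was 2.20-fold lower than in young mice (log2 difference −1.14, SE 0.31, adjusted p = 0.00341) and differed by −0.18 (SE 0.29, adjusted p = 0.649) from nephritic mice. Slc34a3 ran from 14.8 to 45.7 CPM (median 29.4), again all under the young range, and was 2.92-fold lower than in young mice (log2 difference −1.55, SE 0.39, adjusted p = 0.00172) and at −0.39 (SE 0.36, adjusted p = 0.414) from nephritic mice. Kl ran from 289 to 615 CPM (median 400), all under the young median, at −0.76 (SE 0.21, adjusted p = 0.00408) from young and 0.36 (SE 0.20, adjusted p = 0.163) from nephritic mice. With the s-number term from 4 mice, the differences from young mice were −0.95 (SE 0.37, adjusted p = 0.0868) for Slc34a1, −1.14 (SE 0.46, adjusted p = 0.0995) for Slc34a3 and −0.69 (SE 0.27, adjusted p = 0.0865) for Kl. From 3 mice they were −0.82, −0.94 and −0.50 (adjusted p = 0.223, 0.267 and 0.289). Within the 3 mice whose repeat lay closest to its own original, repeat minus original ran from 0.05 to 0.16 log2 for Slc34a1. It ran from −0.05 to 0.23 for Slc34a3 and from −0.01 to 0.11 for Kl, and the s-number fits did not use this pairing.

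Cyp24a1 in remission had a narrow range, from 22.4 to 52.1 CPM (median 38.1), all under the median of nephritic mice over all times. At ZT0 and ZT12 alone, nephritic mice ran from 24.1 to 109 CPM (median 40.1), and the difference was −0.12 (SE 0.36, adjusted p = 0.824). Against young mice, with a mean of 38.6 CPM in remission and 44.0 CPM in young mice of those times, the fitted difference was 0.43 (SE 0.39, adjusted p = 0.397). It was −0.15 (SE 0.38, adjusted p = 0.789) without the set term and 0.87 (SE 0.29, adjusted p = 0.0209) in Set 2 alone, so its sign depended on how set was treated. The log2 ratio of Cyp27b1 to Cyp24a1 averaged −4.34 ± 1.57 (SD, n = 8) in remission, and that of Slc34a3 to Slc34a1 −6.53 ± 0.30. These remission ratios were taken without a prior count and at ZT0 and ZT12 only. The ratios of young and nephritic mice above used a prior count of 2 and all 6 time points, so the values are not directly comparable.

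Against young mice 5 of the 9 members passed and all 5 were lower, where 20.4% of genes were lower and 21.2% higher (median log2 difference −0.46 over the members, −0.00263 over all genes). The summed proximal tubule markers ran from 8740 to 15405 CPM in remission, with 7 of the 12 lower than in young mice, and their part in the carriers' level was not tested. Injury markers were lower than in the nephritic mice of ZT0 and ZT12, which held all 5 with Havcr1 above 400 CPM. In those 13 mice Havcr1 ran from 22.4 to 1122 CPM (median 166) and Lcn2 from 5.37 to 708 CPM (median 120). In remission the levels were as follows. Havcr1 was at 78.0 to 119 CPM and Lcn2 at 7.19 to 64.8 CPM, and both passed against nephritic mice (log2 difference −1.35, SE 0.54, adjusted p = 0.0482 and −2.35, SE 0.73, adjusted p = 0.0115). All 8 remission mice still lay above the young median of each, and 1 of the 2 markers passed as higher than in young mice. Of the 15 macrophage and lymphocyte markers, 1 passed against nephritic mice, Csf1r at 0.29 (SE 0.11, adjusted p = 0.0335), and those that did not pass included Itgam at −0.71 (SE 0.31, adjusted p = 0.0704) and Cd68 at −0.58 (SE 0.28, adjusted p = 0.0938). These 3 were named after their values were seen. Against young mice, without the s-number term, all 8 lymphocyte and all 7 macrophage and myeloid markers were higher in remission.

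**Figure D4:**
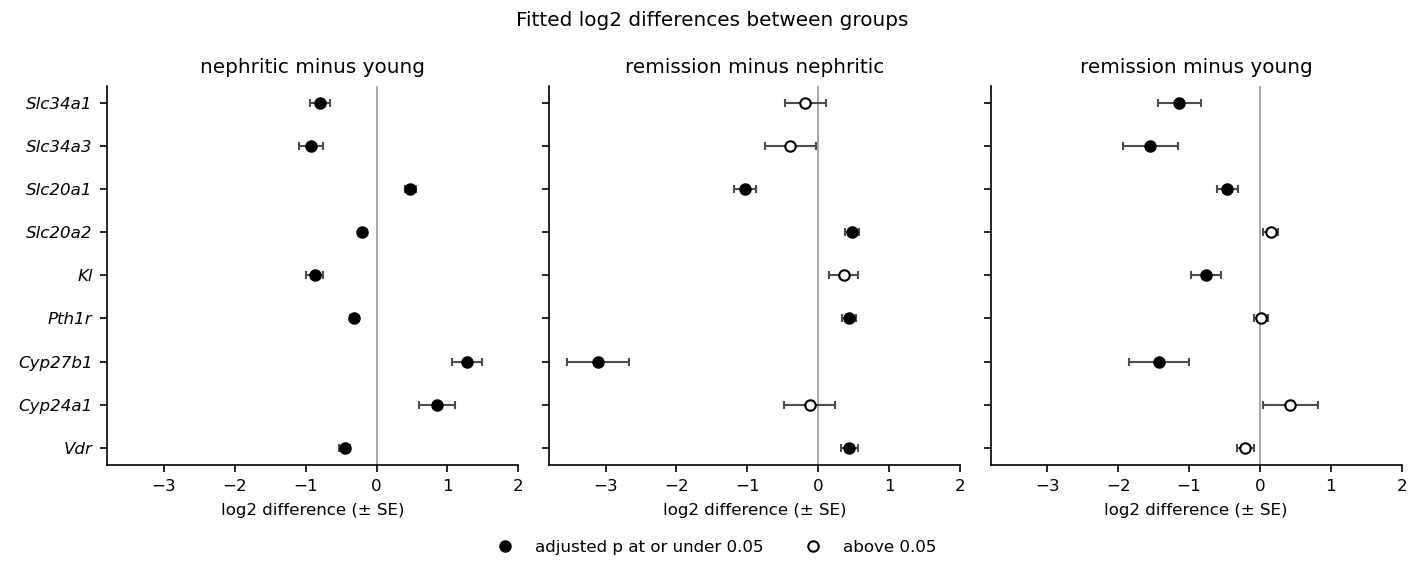
Fitted log2 differences (horizontal axis, ± SE) of the 9 genes for nephritic minus young, remission minus nephritic and remission minus young. Filled points passed an adjusted p of 0.05 and open points did not. Cyp27b1 lies at 1.28, −3.11 and −1.42 in the 3 panels, while Slc34a1 lies at −0.80, −0.18 and −1.14.

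Between ZT0 and ZT12 within remission, no member and no gene of 14451 tested passed in edgeR (0.0%). At an unadjusted p under 0.05 the counts were 0 members and 1449 genes, and DESeq2 called 24 genes and no member. The member differences, ZT0 minus ZT12, ran from −0.21 for Slc34a1 (SE 0.23) to 0.25 for Kl (SE 0.21). Without the ZT12 mouse whose Arntl stood apart, 202 genes and no member passed.

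Among the other lists in remission against nephritic mice, 4 of the 10 phosphate transport genes were higher and none lower, and 3 of the 12 tested genes of hormone signalling were higher and 1 lower. Those 4, named after their values were seen, were the calcium-sensing receptor gene Casr at 0.80, the kinase gene Fam20c at 0.43, Fgfr1 at 0.20 and Pth2r at −2.04. Of the 9 vitamin D supply genes 1 was lower, the vitamin D binding protein gene Gc at −1.09, and of the 6 calcium genes 3 were lower. Trpv5 and Trpv6 were at −1.08 (SE 0.35, adjusted p = 0.0153) and −0.91 (SE 0.36, adjusted p = 0.0467). Stc2, in contrast, was above young mice at 1.11 (SE 0.18, adjusted p = 1.03e-05), and Fgfr4 below them at −0.55 (SE 0.12, adjusted p = 0.000500). These list genes, like Havcr1, Lcn2 and the cell markers in remission, were read without the s-number term only. Whether their calls hold with that term was not checked.

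Over the 57 young and nephritic mice, the genes whose log2 CPM lay closest to each member are a description of likeness only, since all share libraries and groups. Slc34a1 was closest to Aldh7a1, Xylb and Pbld1 (Pearson r from 0.97 to 0.98), and Slc34a3 to Dpep1, Agxt2 and Thnsl2 (0.96 to 0.97). Kl was closest to Atp6v1b2, Acss1 and Bpnt1 (0.93 to 0.94), Pth1r to Slc46a1, Pepd and Rab1b (0.91), and Vdr to Ddah1, Nicn1 and Arhgap18 (0.86 to 0.88). Slc20a1 was closest to Cxcl1, Dusp5 and Nfkbiz (0.83 to 0.88), and Slc20a2 to Fmn1, Dip2c and Exoc6 (0.83 to 0.84). The hydroxylase genes had no close companion: the best for Cyp27b1 was Mmp24 at 0.75, followed by Kctd1 and Tsc22d1, and the best for Cyp24a1 was Rassf10 at 0.58, followed by H3f3b and Klf11.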

How the data were processed

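Per the labels and the study's methods, kidney poly-A RNA was sequenced in paired-end reads and aligned to mm10, although the methods also name single-ended cycles. The methods name a Burrows-Wheeler aligner and the submitters' processing notes name HISAT. Strand use in counting is not given in the sources used here. The authors deposited raw gene counts, 1 file for each of 69 libraries, of which 65 original libraries entered the groups and 4 repeats only the checks. Symbols with an empty cell (15) were left out. Counts were fitted in edgeR 4.0.16 (R 4.3.3; TMM scaling, quasi-likelihood test) for genes with at least 100 counts over the libraries of a fit, with Benjamini-Hochberg adjustment over all genes tested and a threshold of 0.05. CPM are TMM-scaled, and correlations were taken on the log2 CPM scale (prior count 2), each tested with 100000 permutations. DESeq2 1.42.0 was an alternative, and the scripts were tested on simulated data. Replicates are separate mice, numbered in accession order. The members and gene lists were chosen with earlier results of these data known. Named genes were all 9 members, from each list up to 4 called genes with the largest nephritic against young difference, and the 3 genes most like each member. Alternatives covered scaling, filter, set, time model, repeat libraries and each mouse left out.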

Additional observations from a re-analysis of the deposited data

Results flagged for a closer look

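Within each group and time point of 4 to 7 mice, the gap of the highest or lowest mouse to the next was set against the range of the group on the log2 scale. Of 108 such sets of values, 6 exceeded Dixon's 95% critical value, and chance alone gives about 1 in 20. Kl was at 1126 CPM in young ZT0 replicate 4, against 725 to 820 CPM in the other 6 mice, and at 948 CPM in young ZT8 replicate 4, against 692 to 719 CPM. The latter mouse also had the highest Slc34a1, 7138 CPM against 5711 to 5874 CPM. Slc20a2 was at 41.7 CPM in young ZT16 replicate 1, against 51.5 to 53.6 CPM. Vdr was at 181 CPM in nephritic ZT4 replicate 1, against 194 to 197 CPM, a set whose other values lay very close together. Cyp27b1 was at 0.264 CPM in remission ZT12 replicate 4, against 3.07 to 3.57 CPM. That is the library whose Arntl also stood apart, and the differences of Cyp27b1 without it are given with the result.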

How the results depend on the processing

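Counts of members past the threshold were within 1.5 times the main count under DESeq2, RLE scaling, no filter, no set term and Set 2 alone, except for the group by time test, where DESeq2 and RLE scaling each called 1 member against 0. With the proximal tubule markers as a covariate, 3 of 9 passed between nephritic and young mice, and Slc34a1 and Slc34a3 were at 0.023 and 0.019. In Set 1 alone, added after the data were seen, Cyp24a1 was at −0.68. The cosine fit called 1 member over time in nephritic mice. With an s-number term, which did not pair repeats with their originals, 3 members passed against nephritic mice and 0 against young mice. This held with the repeats of 4 mice or without the mismatched one. The injury relation held for 4 members in Set 2 by Spearman and, in mice with Havcr1 under 400 CPM, for 4 by Pearson and 2 by Spearman. The Cyp27b1 to Cyp24a1 log2 ratio differed by −0.080 in Set 2 alone. Leaving out 1 mouse gave 9 members between nephritic and young mice, 6 to 8 over time in young and 1 to 4 in nephritic mice, 0 to 1 for group by time, 5 against nephritic and 5 to 6 against young mice in remission, 6 to 7 for injury, and ratio differences of 0.15 to 0.46 and −0.19 to −0.14. Over all genes, the covariate left 3645 calls of 10877. Calls over time in nephritic mice were 3646, and 362, 5646 and 1994 with the cosine fit, DESeq2 and no set term. For group by time they were 1099, and 121, 2186 and 1715 with the cosine fit, DESeq2 and Set 2 alone. Against nephritic mice 6319 calls became 4001 or 3835 with the s-number term, and against young mice 7002 became 2342 or 1702. The causes were not tested. Between mice of different groups, no paired analysis was possible because replicate numbers only follow accession order. Repeat libraries could be paired with the originals of the same mice, but the s-number fits did not use that pairing.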
